A study of Mus musculus with 6 samples.

Results

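10 gene names with much lower levels in GFP-positive than in GFP-negative thymocytes, or described as less studied genes of the double-positive stage, were followed: Als2cl, Inadl, Nav2, BC028471, Gm15340, Gm16042, Arpp21, Aqp11, Rmnd5a and Narf. They were chosen by name for their levels in these same libraries, so the difference between the groups is given for them as a description, with no test. The 10 names matched 11 of the 41386 rows of the 6-library table, because 2 gene identifiers carry the name Gm16042. Both groups were DN4 thymocytes of adult C57BL/6 mice of genotype Gata3(g/+), in which one Gata3 allele carries a GFP reporter and the other is wild type, and they were sorted as GFP-negative (3 libraries) or GFP-positive (3 libraries). All animals carried the reporter allele, so no group has 2 wild-type alleles. Nothing in the labels tells whether each library had its own animal or culture, so errors and p-values reflect library-to-library spread alone, possibly only technical. Levels are FPKM, fragments scaled to transcript length and to the size of the library, from RNA depleted of ribosomal RNA.

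DN4 thymocytes are past beta selection, at which a working T cell receptor (TCR) beta chain is required, and proliferate before they turn on both coreceptors and become double-positive cells. At the double-positive stage division slows, the recombinase is expressed again and the TCR alpha locus rearranges. GATA3, the zinc finger factor whose reporter defined the sort, is needed at several of these steps. The followed genes are a mixed set by known role: a RAB5-binding protein (Als2cl), a polarity scaffold (Inadl), a microtubule-associated protein (Nav2), long noncoding RNAs, an RNA-binding protein known from thymocytes (Arpp21), an intracellular water channel (Aqp11), a ubiquitin ligase subunit (Rmnd5a) and a protein that binds prelamin A (Narf).

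Gata3 itself stood at 22.5 ± 1.77 FPKM in the negative sort and 63.3 ± 0.801 FPKM in the positive sort (SD, n = 3 libraries a group), 2.82-fold higher in the latter. Between 10793 and 11632 genes reached 1 FPKM in a library, and the read depth behind the values is unknown. Of 11465 genes with a mean of at least 1 FPKM, 54.2% passed an adjusted p of 0.05 in limma, 24.4% higher and 29.8% lower in GFP-positive cells. Quantile normalization, which moved the median log2 difference of all genes up by 0.13, turned the split from 2797 higher and 3419 lower genes to 3494 higher and 2846 lower.

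Every one of the 11 rows had its 3 GFP-negative libraries above its 3 GFP-positive libraries, as did 35.1% of all tested genes in that direction (63.8% did not overlap in either direction). Since the rows were chosen on this contrast, their count is not a result about them. All 11 rows entered the fit, and BC028471 and Gm15340 did so through their GFP-negative level alone, since both averaged under 1 FPKM in GFP-positive cells. The ratio of group means ran from 1.88 for Aqp11 to 66.6 for BC028471, with 6 rows over 10-fold and 5 below. In bulk samples, fewer cells of a type and less RNA per cell cannot be told apart.

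**Figure D1:**
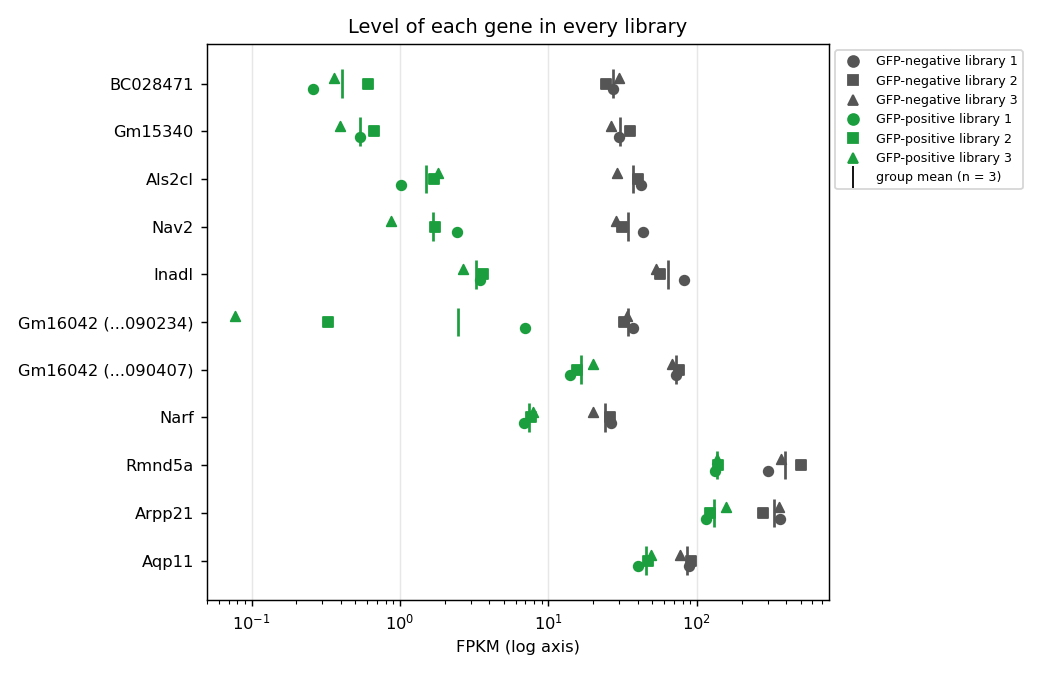
FPKM on a log axis (x) for each of the 11 rows (y, ordered by the ratio of group means), with 1 symbol per library, GFP-negative in grey and GFP-positive in green, and a vertical bar at each group mean (n = 3). The groups are apart in every row, from 1.88-fold in Aqp11 to 66.6-fold in BC028471, and the GFP-positive libraries of one Gm16042 row are spread from 0.0770 to 6.98 FPKM.

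Als2cl, Inadl and Nav2 are protein-coding genes with at least 28.6 FPKM in every GFP-negative library and at most 3.61 FPKM in any GFP-positive one. Als2cl, whose product binds the early endosome GTPase RAB5, stood at 42.1, 40.4 and 29.0 FPKM in libraries 1, 2 and 3 of the GFP-negative group and at 1.02, 1.69 and 1.81 FPKM in those of the GFP-positive group, the order kept for every gene that follows. Its lowest GFP-negative library was 16.0 times its highest GFP-positive library, and the ratio of means was 24.7. The log2 difference on the log2(FPKM + 0.5) scale, used throughout and understating the change of low genes, was -4.24 with a standard error of 0.21.

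Inadl, now named Patj, encodes a scaffold with many PDZ domains that joins the Crumbs complex of polarised cells. Its levels were 81.4, 56.2 and 53.2 FPKM without GFP, against 3.43, 3.61 and 2.63 FPKM with GFP. GFP-negative library 1 was the high one, at 1.53 times the lowest of its group, and the groups were 14.7-fold apart at their nearest values. The log2 difference was -4.09 ± 0.19 (SE).

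Nav2 encodes neuron navigator 2, a cytoskeletal protein known for its part in neurite growth. It stood at 43.5, 31.1 and 28.6 FPKM without GFP, against 2.42, 1.71 and 0.874 FPKM with GFP. Library 1 was the highest of both groups, the lowest GFP-negative library lay 11.8-fold above the highest GFP-positive one, and the log2 difference was -4.05 ± 0.28 (SE). Nav2 and Inadl had the most similar profiles of any 2 rows: after each was centred on its mean, their log2 values differed by a root mean square of 0.22 over the 6 libraries.

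The noncoding RNAs BC028471 and Gm15340 were the most unequal of the rows. BC028471 stood at 27.3, 24.6 and 29.7 FPKM without GFP, against 0.259, 0.607 and 0.359 FPKM with GFP, so that its nearest values were 40.5-fold apart. Gm15340 stood at 29.8, 35.5 and 26.3 FPKM without GFP, against 0.540, 0.668 and 0.393 FPKM with GFP, 39.4-fold apart at the nearest values. Their log2 differences were -4.94 ± 0.19 and -4.91 ± 0.18 (SE). Both depended on the pseudocount: with 0.1 in place of 0.5 they were -5.80 and -5.61, and with 1 they were -4.33 and -4.36. Their centred profiles differed by 0.24, the next most alike of the pairs, followed by Narf and Rmnd5a (0.25).

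Gm16042 was represented by 2 rows that behaved differently. The row ENSMUSG00000090407 stood at 72.6, 75.6 and 67.5 FPKM without GFP, against 14.0, 15.6 and 19.9 FPKM with GFP, a ratio of means of 4.36 and a log2 difference of -2.11 ± 0.14 (SE). The row ENSMUSG00000090234 stood at 37.1, 32.5 and 33.6 FPKM without GFP, against 6.98, 0.328 and 0.0770 FPKM with GFP. GFP-positive library 1 was thus 90.7 times library 3, while the GFP-negative libraries differed by at most 1.14-fold. The log2 difference of this row was -4.51 ± 1.11 (SE), and -5.66 without GFP-positive library 1. The authors' deposited Cuffdiff table of 6 libraries gave this row a q of 0.240 and their table of 4 libraries a q of 0.318. Since the 11 rows were chosen on this contrast, deposited q-values are no test of them. Neither identifier is in GENCODE M21, so the rows are named by identifier and no position is given for them.

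The profiles most like ENSMUSG00000090234 were variable segments of the TCR alpha locus. Trav14n-3, the nearest, stood at 36.2, 16.9 and 20.5 FPKM without GFP and at 3.19 FPKM in GFP-positive library 1, and was listed at 0 in GFP-positive libraries 2 and 3. Trav14-2 stood at 66.8, 33.7 and 49.8 FPKM without GFP, against 4.88, 2.05 and 0.772 FPKM with GFP. The root mean square differences from the Gm16042 row were 0.36 and 0.69 on the log2 scale over 6 libraries. The 5 closest genes were all such segments, 3 of them of the Trav14 family, and values of segments of one family are uncertain where the counting could split reads between them. Within GFP-positive cells, 46 of 81 tested variable segments, counted over all TCR loci and not the alpha locus alone, were highest in library 1. The share was 19.3% of all tested genes. Of the 7 double-positive markers 4 were highest there, among them Trac, the alpha constant region (55.4 FPKM against 27.1 and 22.5), and Cd4 (10.3 FPKM against 6.82 and 6.13). Rag1 (119 FPKM against 122 and 120.3) and Cd8b1 (99.8 FPKM against 108 and 105) were lowest there, and Cd8a lay between the other libraries. With 0.5 added to each value, the Gm16042 row in library 1 was 9.03 times the higher of libraries 2 and 3, a ratio reached by 24 of the 11465 tested genes, 0 of them variable segments. The part of these differences in the value of the row was not tested.

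**Figure D2:**
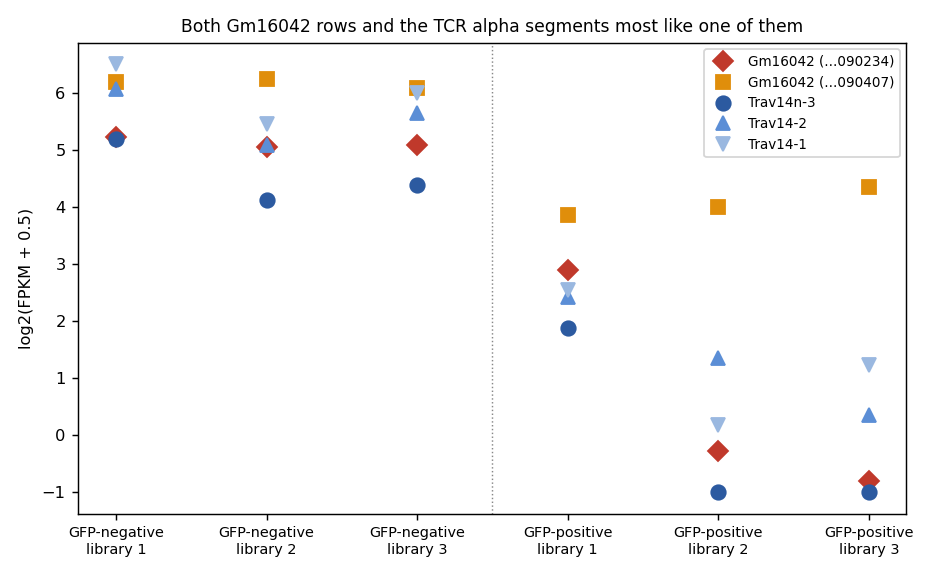
Log2(FPKM + 0.5) (y) in each of the 6 libraries (x) for the 2 rows named Gm16042 and the 3 TCR alpha segments closest to ENSMUSG00000090234. That row and the segments are higher in GFP-positive library 1 than in libraries 2 and 3, whereas ENSMUSG00000090407 is lowest there, at 14.0 FPKM.

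The remaining names kept substantial levels in GFP-positive cells. Arpp21 encodes an RNA-binding protein with an R3H domain that was described in thymocytes as TARPP. It stood at 361, 278 and 357 FPKM without GFP, against 115, 122 and 156 FPKM with GFP, a ratio of means of 2.53 and a log2 difference of -1.34 ± 0.16 (SE). The groups were 1.78-fold apart at their nearest values, with GFP-negative library 2 the low one of its group.

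Rmnd5a encodes a RING domain subunit of the CTLH ubiquitin ligase. It stood at 301, 501 and 367 FPKM without GFP, against 132, 139.7 and 136 FPKM with GFP. The GFP-negative libraries spread over a coefficient of variation of 26.2%, the largest of the 11 rows in that group, and the GFP-positive libraries over 2.83%, the smallest in theirs. The log2 difference was -1.49 ± 0.18 (SE).

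Narf, whose product binds the farnesylated tail of prelamin A and resembles iron-only hydrogenases, stood at 26.3, 26.05 and 19.9 FPKM without GFP, against 6.84, 7.62 and 7.83 FPKM with GFP (log2 difference -1.62 ± 0.14, SE). Aqp11, an aquaporin of the endoplasmic reticulum, stood at 88.2, 90.8 and 76.7 FPKM without GFP, against 40.0, 47.1 and 48.7 FPKM with GFP (-0.91 ± 0.12). In both genes GFP-negative library 3 was the lowest of its group and GFP-positive library 1 the lowest of its own. Aqp11 had the narrowest gap of the 11 rows, with nearest values 1.57-fold apart.

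The order of levels, per length of transcript, differed between the groups. In GFP-negative cells the means ran from Rmnd5a (389.5 FPKM) and Arpp21 (332 FPKM), whose libraries overlapped, through Aqp11 (85.2 FPKM) and ENSMUSG00000090407 (71.9 FPKM) to Inadl (63.6 FPKM), the last pair overlapping. Below these, each of Als2cl, ENSMUSG00000090234, Nav2, Gm15340, BC028471 and Narf overlapped the next, from 37.1 down to 24.1 FPKM. In GFP-positive cells Narf, last in the other group, was number 5 at 7.43 FPKM, above every library of Inadl (3.23 FPKM), after Rmnd5a (136 FPKM) and Arpp21 (131 FPKM), which overlapped, Aqp11 (45.3 FPKM) and ENSMUSG00000090407 (16.5 FPKM). ENSMUSG00000090234 (mean 2.46 FPKM), spread from 0.0770 to 6.98 FPKM, overlapped every row from Narf down. Of the others, Inadl lay above Nav2 (1.67 FPKM), Nav2 and Als2cl (1.505 FPKM) overlapped, and Gm15340 and BC028471 overlapped at 0.534 and 0.408 FPKM.

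Placed among all tested genes by log2 difference, from the largest decrease, BC028471 was number 18, Gm15340 number 20, ENSMUSG00000090234 number 37, Als2cl number 47, Inadl number 52 and Nav2 number 54 of 11465. A log2 difference of -4 or beyond was seen in 58 tested genes. ENSMUSG00000090407 was number 364, Narf number 670, Rmnd5a number 814, Arpp21 number 1008 and Aqp11 number 1964. The choice of names had no numerical threshold, so there is no boundary on either side of which values could be compared.

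**Figure D3:**
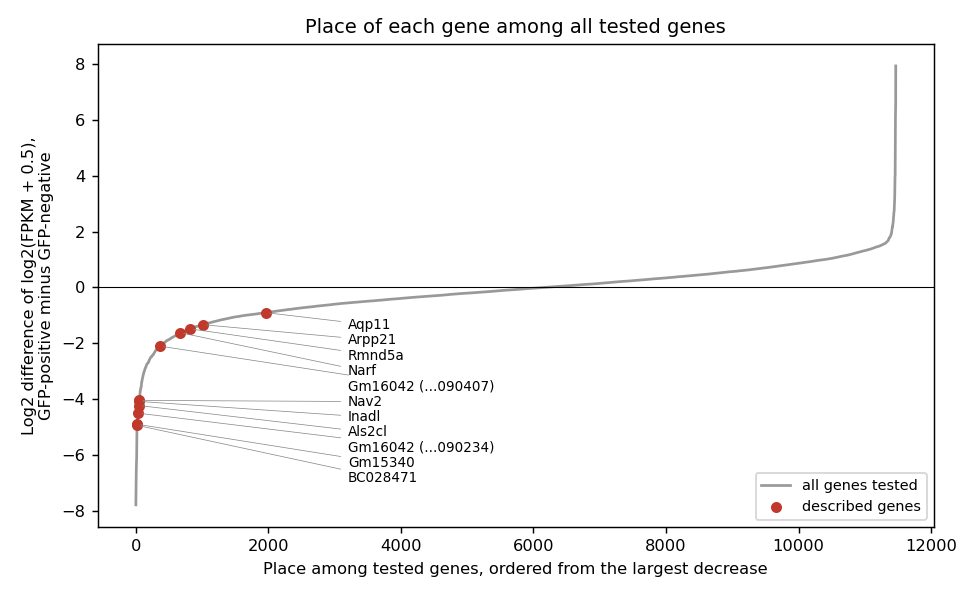
Log2 difference of log2(FPKM + 0.5), GFP-positive minus GFP-negative (y), of all 11465 tested genes in order from the largest decrease (x), with the 11 rows marked. Of the 11 rows 6 lie within the first 54 places and Aqp11, the last, is number 1964.

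Within the GFP-negative group, library 3 was the lowest of the 3 for 7 of the 11 rows and the highest for 1. Library 3 was the lowest for 25.5% of all tested genes, and for 50.7% of the genes called lower in GFP-positive cells. It also held the most RNA of 6 proliferation markers, summed to 343 FPKM against 183 and 199.95 in libraries 1 and 2, and 704 to 750.1 in the GFP-positive libraries. The summed level of 7 double-positive markers was 2186 FPKM in GFP-negative library 3, against 2573 and 3285 in libraries 1 and 2, and 327 to 366 in the GFP-positive libraries, although DN4 cells are defined by lacking CD4 and CD8 at the surface. Within the GFP-positive group, library 1 was the lowest for 7 of the 11 rows, beside 57.3% of all tested genes. The part of proliferating and double-positive cells in the levels of the 11 rows was not tested.

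Markers of other cells that a sort could hold were summed in each library. Thymic epithelial markers, of interest because Inadl is best known from epithelia, summed to 5.75 to 7.35 FPKM in GFP-negative and 6.54 to 8.50 FPKM in GFP-positive libraries, with Foxn1 and Krt5 at 0 in all 6. Of 4 neuronal markers, set beside Nav2, 1 reached a mean of 1 FPKM, and their sum was 1.33 to 3.13 FPKM in GFP-negative and 5.79 to 9.73 FPKM in GFP-positive libraries, with Snap25 at 0. B cell markers summed to 7.10 to 9.71 and 2.24 to 3.60 FPKM, with Pax5 at 0, and the 5 myeloid markers found summed to 2.01 to 3.31 and 0.260 to 0.805 FPKM, with Cd14 at 0. Dendritic markers, with Siglech at 0, summed to 11.4 to 19.3 and 24.3 to 35.9 FPKM, most of it from Bst2 (10.1 to 17.8 and 24.0 to 35.4 FPKM). NK markers summed to 0.358 to 3.99 and 1.82 to 8.03 FPKM and erythroid markers to 2.20 to 3.09 and 2.12 to 3.34 FPKM. The gamma-delta list, with 5 of its 6 markers found, summed to 121 to 142 and 71.4 to 80.2 FPKM. Of these, 4 rose and 1 fell by limma's adjusted p, and Tcrg-C1, a gamma constant region, was at 6.06 to 12.8 FPKM in the negative sort and 37.2 to 41.0 FPKM in the positive sort. The 7 double-negative markers summed to 383 to 454 and 359 to 368 FPKM, most of it from Trbc1 (305 to 394 and 236 to 245 FPKM), and 3 of them rose and 1 fell. Notch1, a receptor needed for T cell commitment, was at 36.3 to 56.8 and 86.9 to 96.6 FPKM.

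On GRCm38, Als2cl lies on the plus strand of chromosome 9 (chr9:110879870-110900530), Inadl on the plus strand of chromosome 4 (chr4:98395785-98719603) and Nav2 on the plus strand of chromosome 7 (chr7:48908716-49610090). Arpp21 is on the minus strand of chromosome 9 (chr9:112065091-112235938), Aqp11 on the minus strand of chromosome 7 (chr7:97724006-97738289), Rmnd5a on the minus strand of chromosome 6 (chr6:71388634-71440637) and Narf on the plus strand of chromosome 11 (chr11:121237253-121255856). Gm15340, annotated as a long intergenic noncoding RNA with 1 transcript, is on the plus strand of chromosome 16 (chr16:95900398-95901728). BC028471 was matched by its name alone, since its identifier is not in GENCODE M21, to a long intergenic noncoding RNA on the plus strand of chromosome 5 (chr5:149367636-149393596). Of the 7 protein-coding genes, 3 span over 100000 bases (Nav2 701375, Inadl 323819 and Arpp21 170848), beside a median of 23404 bases for 9892 tested protein-coding genes.

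Promoters were read from RefSeq (GRCm38.p6) as the 250 bases before the most upstream start that the RefSeq table gives for each of the 7 protein-coding genes. GENCODE has starts further upstream for some: the Nav2, Arpp21 and Als2cl windows lie inside the GENCODE gene spans, and exons cover 250 bases of the Als2cl window, 150 of Arpp21, 42 of Aqp11 and 41 of Inadl. A pair of them is shown: Nav2, a gene with one of the widest differences, and Rmnd5a, whose neighbours include the Cd8 genes described below. Each has 1 match, in capitals, to the searched forms of the E-box, the site type of E proteins. Other forms were not searched, and neither window overlaps a GENCODE exon.
Nav2 promoter, chr7:48958823-48959072, plus strand: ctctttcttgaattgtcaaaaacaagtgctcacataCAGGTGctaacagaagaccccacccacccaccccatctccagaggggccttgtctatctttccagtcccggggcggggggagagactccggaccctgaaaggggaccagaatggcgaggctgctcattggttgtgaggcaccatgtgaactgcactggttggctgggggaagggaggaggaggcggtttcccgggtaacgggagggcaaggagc
Rmnd5a promoter, chr6:71440638-71440887, minus strand: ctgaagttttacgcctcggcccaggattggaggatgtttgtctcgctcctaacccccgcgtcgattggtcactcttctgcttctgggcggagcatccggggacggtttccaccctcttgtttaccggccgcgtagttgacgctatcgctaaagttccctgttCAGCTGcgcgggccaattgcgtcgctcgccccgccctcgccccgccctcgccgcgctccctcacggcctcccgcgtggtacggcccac

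The promoters were searched for 6 motifs on both strands, and no matches overlapped in these 7. Shares are given over 7844 promoters of tested genes and then over all 27025, at the same length. The E-box CAGGTG was found for Nav2 and Inadl, and in 14.2% and 17.1% of promoters. The E-box CAGCTG was found for Rmnd5a, and in 10.7% and 12.7%. Arpp21 held the GATA motif AGATAA, present in 5.84% and 10.2%, and the RUNX motif TGTGGT, present in 10.6% and 14.15%. Aqp11 held the nuclear receptor motif AGGTCA, present in 9.92% and 13.8%, and the ETS motif CCGGAA, present in 25.6% and 12.25%. The Arpp21 promoter was 40.4% G and C, a share that 1.94% of 7844 promoters of tested genes had or fell below, whereas the other 6 held 58.8% to 71.2%, around the median of 60.0%. A match is a description of letters and shows no binding.

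An intron of Arpp21 holds the microRNA gene Mir128-2, shown because it shares the Arpp21 transcript. Its seed, bases 2 to 8, is in capitals, and the sequence is RefSeq's.
mmu-miR-128-3p: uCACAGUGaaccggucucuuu
Mir128-2 was listed at 0 FPKM in all 6 libraries, as was Mir128-1, which yields the same mature 3p sequence from another locus. Libraries of long RNA fragments need not hold mature microRNAs, so nothing is known here of miR-128 levels.

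Genes beside the followed ones were not used in their choice and could be tested. Of 42 tested genes that overlapped one of 9 placed genes, lay within 200000 bases or were the nearest on either side, 18 fell (42.9%, beside 29.8% of all tested genes) and 7 rose (16.7%, beside 24.4%) in GFP-positive cells by limma's adjusted p. Their median log2 difference was -0.25, against -0.08 for all tested genes. The 18 nearest flanking genes held 8 that fell (44.4%) and 5 that rose (27.8%). Of the neighbours that fell, Tmie, 5730422E09Rik, Medag, Rsf1os2 and Fn3k averaged under 1 FPKM in GFP-positive cells. They entered the fit through their GFP-negative level alone, so their calls were favoured by the filter. With a minimum mean of 5 FPKM, fewer neighbours were tested and 12 of them fell. Of all genes, 2479 of the 7890 tested under that filter fell.

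Rmnd5a lies among genes that fell with it. Cd8a, a chain of the CD8 coreceptor 9461 bases away, was at 267, 356 and 221 FPKM without GFP, against 33.3, 37.4 and 29.2 FPKM with GFP, a log2 difference of -3.04 ± 0.18 (SE; limma, adjusted p = 1.09e-05). Cd8b1, the other chain, had one of -2.26 (adjusted p = 2.69e-05). GFP-negative library 2 was the highest of its group for Rmnd5a, Cd8a and Cd8b1 alike. The same library was the highest for 33.6% of all genes called lower in GFP-positive cells, so this order is not particular to the locus. Smyd1, a muscle histone methyltransferase gene on the far side of Cd8b1 (-1.80), Rnf103, a ubiquitin ligase of the endoplasmic reticulum (-1.45), and Kdm3a, a histone demethylase (-1.22), fell as well. Krcc1 and Chmp3 were not called (0.12 and -0.14), so 5 of the 7 neighbours fell, beside 29.8% of all tested genes.

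Gm15340 and BC028471 also had neighbours that fell. Ets2, an ETS family transcription factor 179347 bases from Gm15340, was at 170.2 ± 32.5 FPKM without and 25.4 ± 1.74 FPKM with GFP (SD, n = 3 each; log2 difference -2.71, limma adjusted p = 8.82e-06). On the other side Psmg1, a proteasome assembly chaperone, rose (0.89), and Brwd1, a bromodomain protein, fell (-0.76). Beside the BC028471 position, Medag fell from 2.26 ± 0.271 to 0.0818 ± 0.0503 FPKM (-2.24, adjusted p = 0.000458), and Uspl1, a SUMO protease (-1.42), and the noncoding 5730422E09Rik (-2.71) fell too. Hmgb1, an abundant chromatin protein, was not called (0.24), and turned to -0.44 under quantile normalization and to a call of 0.30 without GFP-negative library 3.

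Als2cl overlaps Tmie, a gene of the opposite strand whose start lies 243 bases inside it and whose product is a part of the hair cell transduction channel. Tmie stood at 4.80 ± 0.690 FPKM without and 0.0605 ± 0.0525 FPKM with GFP (SD, n = 3 each; log2 difference -3.24, limma adjusted p = 3.35e-05). No source used here tells whether strand was used in assigning reads, so reads of the overlap cannot be told apart. The flanking Ccdc12 (0.15) and Lrrfip2 (0.01) were not called.

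Nav2 and Inadl stood among neighbours that did not fall to a like extent. E2f8, a repressor of the E2F family 27120 bases from Nav2, rose from 16.3 ± 4.31 to 37.8 ± 2.49 FPKM (a log2 difference of 1.22; SD, n = 3 a group; limma adjusted p = 0.00057), Prmt3 rose (1.19), and Zdhhc13 and Htatip2 were not called. Beside Inadl, Usp1, a deubiquitinase of DNA repair, rose (0.92), and Tm2d1 fell (-0.54), a call lost under 4 alternatives, among them those without GFP-negative library 2 (-0.43, adjusted p = 0.0533) or GFP-positive library 2 (-0.49, adjusted p = 0.0574).

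The neighbours of Narf, Aqp11 and Arpp21 went both ways. Near Narf, Fn3k, a fructosamine kinase, fell from 5.21 ± 0.303 to 0.112 ± 0.13 FPKM (SD, n = 3 each; -3.24, limma adjusted p = 3.52e-05), and BC017643 (-0.77) and Hexdc (-0.57) fell, the Hexdc call being lost without GFP-positive library 1 (limma adjusted p = 0.0543), while Foxk2, a forkhead factor 4134 bases from Narf, rose (0.89). Near Aqp11, Clns1a, a chloride channel regulator that also acts in splicing (0.66), and Ints4, an Integrator subunit (0.69), rose, and Rsf1, a chromatin remodelling subunit (-0.51), and Rsf1os2 (-0.77) fell. The Rsf1os2 call was lost under 13 alternatives, among them those leaving out any 1 library (adjusted p = 0.0574 to 0.141). Epm2aip1, the nearest tested gene on one side of Arpp21, lay 785998 bases away and fell (-0.64). Pdcd6ip, the nearest on the other side, lay 1415806 bases away and was not called (-0.26). The noncoding RNAs that overlap Arpp21 on the other strand, 2310075C17Rik and 2900079G21Rik, were not called (-0.76 and -0.22), although 2310075C17Rik fell without GFP-negative library 1 (-1.11, limma adjusted p = 0.00463).

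**Figure D4:**
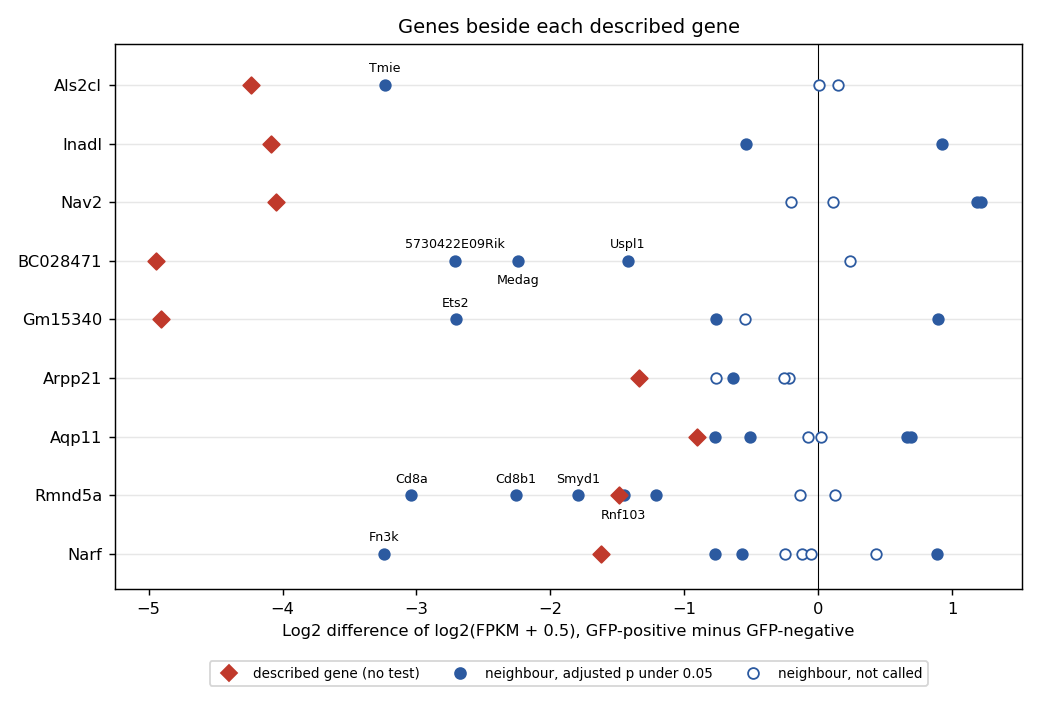
Log2 difference, GFP-positive minus GFP-negative (x), of the 9 placed genes (red diamonds, no test) and of the genes beside each (circles, filled where limma's adjusted p was under 0.05). Rmnd5a has 5 of 7 neighbours that fell, with Cd8a at -3.04, while the called neighbours of Nav2 lie at 1.19 and 1.22.

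The genes with profiles most like each followed gene were listed as a description, by the root mean square difference of centred log2 values over 6 libraries. For Als2cl they were Trav13n-4 (0.20) and Slc6a19, an amino acid transporter (0.21), and for Inadl they were Plxnd1, a semaphorin receptor (0.14), and Slc7a11, a cystine transporter (0.21). Plxnd1 was also the closest to Nav2 (0.22), followed by Gramd3 (0.31). Adam12, a metalloprotease (0.22), and Map4k5, a kinase (0.31), were closest to BC028471, and Map4k5 (0.17) and Cd4 (0.22) to Gm15340. Smaller differences, found for the rows with smaller contrasts, were those of Vgll4 (0.02) and Lat, an adaptor of TCR signalling (0.02), from Aqp11, of Tnfrsf1a and Zdhhc14 from Narf (0.05 each), and of Sag (0.06) and 5830418P13Rik (0.07) from Arpp21. Mypop (0.09) and Sft2d2 (0.11) were closest to Rmnd5a, and A630007B06Rik (0.06) and Gm9821 (0.08) to ENSMUSG00000090407.

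Genes known to work with the followed proteins went both ways. Of 98 such genes 68 were tested, and 20 fell (29.4%, beside 29.8% of all tested genes) and 18 rose (26.5%, beside 24.4%). Their median log2 difference was -0.05. Both shares are near those of all tested genes, so the counts are not a result about these genes. The number that rose was 9 without GFP-positive library 2, 10 without GFP-negative library 1 and 11 without GFP-positive library 3. Of all tested genes, 2156, 2395 and 2208 rose in those fits, against 2797 with every library.

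In the CTLH ligase of Rmnd5a 4 of 10 genes fell and 1 rose, beside 29.8% and 24.4% of all tested genes. Ypel5 stood at 19.2, 24.0 and 18.0 FPKM without GFP, against 3.68, 2.76 and 3.42 FPKM with GFP, groups that do not overlap (log2 difference -2.46 ± 0.16, SE; limma, adjusted p = 1.5e-05). Wdr26, another subunit, fell (-0.84), and Gid4, the subunit that recognises substrates, rose (0.89). For Inadl, 4 of 11 tested polarity genes fell and 3 rose. Prkcz, an atypical protein kinase C, fell from 5.43 ± 0.892 to 1.94 ± 0.279 FPKM (-1.28, adjusted p = 0.000738), and Llgl2, a basolateral polarity protein, fell (-1.15). Prkci, the other atypical kinase, rose (0.55), as did Pard6g (0.56), calls lost under 4 and 2 alternatives, for both without GFP-positive library 2 (adjusted p = 0.0952 and 0.0592) and library 3 (0.0657 and 0.0585) and for Prkci also without GFP-negative library 1 (0.063).

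Of 11 tested genes of RAB5 and its exchange factors and effectors, set beside Als2cl, 4 fell and 1 rose. Of all tested genes 29.8% fell and 24.4% rose. Rab5b fell from 20.9 ± 3.71 to 10.4 ± 1.04 FPKM (SD, n = 3 each; -0.96, limma adjusted p = 0.000993), and Gapvd1, an exchange factor, fell (-0.41). The Gapvd1 call was lost in the table of the 4-library run (adjusted p = 0.053). Among 9 tested navigators and microtubule end proteins, set beside Nav2, Clip2 (-1.39) and Macf1, a microtubule and actin linker (-1.09), were among 3 that fell, and Ckap5, a microtubule polymerase (0.94), and Clasp2 (0.47) were among 4 that rose. The Clasp2 call was lost under 8 alternatives, without GFP-negative library 1 or 2 or GFP-positive library 2 or 3 among them (adjusted p = 0.0739 to 0.12).

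Of 17 tested genes of prelamin processing and cytosolic iron-sulphur assembly, set beside Narf, 6 rose and 3 fell. Of all tested genes 24.4% rose and 29.8% fell. Lmnb2, a B-type lamin, rose from 8.13 ± 2.55 to 19.2 ± 2.27 FPKM (SD, n = 3 each; 1.22, limma adjusted p = 0.00119), Fam96a rose (0.78) and Ndor1, a reductase of iron-sulphur assembly, fell (-0.62). Narfl, the paralog of Narf, fell (-0.46, adjusted p = 0.0446), a call lost under 11 alternatives, with adjusted p up to 0.255. Each library except GFP-negative library 3 and GFP-positive library 3 ended it when left out. Of 10 tested genes set beside Arpp21, 3 rose, with Calm3, a calmodulin gene (0.76), and Arpp19, a phosphatase inhibitor (0.60), foremost, and R3hcc1l (-0.67) and R3hdm4 (-0.34) fell. The R3hdm4 call was lost under 5 alternatives, without GFP-negative library 2 or GFP-positive library 1 or 2 among them (adjusted p = 0.0865 to 0.102). None of the 11 other aquaporin genes reached a mean of 1 FPKM. Aqp3 was at most 0.171 FPKM in a library, and the highest value of any of them was 0.196 FPKM, for Aqp4 in GFP-negative library 1.

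Of 33 tested genes of the double-positive stage, 29 fell (87.9%, beside 29.8% of all tested genes) and 0 rose (beside 24.4%) by limma's adjusted p. Their median log2 difference was -2.01, against -0.08 for all tested genes. At an unadjusted p under 0.05, 1 of them, Rmi2, a subunit of a DNA crossover dissolving complex, was higher, and without GFP-negative library 3 it was called. The list was chosen with results of these data known, so its count is not independent evidence. Cd8a, Cd8b1 and Ets2 are in the list and are also counted among the neighbours that fell. Cd4 (-4.83), Slc15a2, a peptide transporter (-4.62, adjusted p = 0.0401), and Slc7a11 (-4.10) had the largest decreases. Slc7a11, at a mean of 0.664 FPKM in GFP-positive cells, entered the fit through its GFP-negative level alone. Slc15a2 lost its call without any library except GFP-positive library 3 (-3.83 to -4.84, adjusted p = 0.084 to 0.114). Als2cl, Inadl and Nav2 thus differed by more than Cd8a (-3.04), and Narf, Rmnd5a, Arpp21 and Aqp11 by less than the median of that list, as values and with no test between them.

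In the authors' second run, scaled separately over 4 libraries without library 1 of each group, the ratio of group means changed most for ENSMUSG00000090234. Its libraries 2 and 3 held 32.8 and 34.3 FPKM without GFP, against 0.165 and 0.125 FPKM with GFP, a ratio of 232 in place of 14.0 in the 6-library run. The same 4 libraries in the 6-library run gave a ratio of 163. For the other 10 rows the ratio was 1.85 to 58.1 in the second run, lowest for Aqp11 and highest for Gm15340.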

How the data were processed

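RNA of sorted cells was depleted of rRNA, per the labels' protocols; TopHat2, Cuffdiff and mm10 are named in the submitters' processing notes, whose settings and annotation release no source used here gives. FPKM per library were deposited by the authors from a Cuffdiff run over 6 libraries and another over 4, with a q-value per gene per the file headers. A deposited note on Gata3 alone was not used. Rows were taken by gene name, and identifiers matched to GENCODE M21 (99.1% of tested genes).

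Groups were compared with limma 3.58.1 in R 4.3.3 (mean-variance trend, robust variances) on log2(FPKM + 0.5). The 11465 genes averaging 1 FPKM or more were tested, after leaving out 24 genes of status HIDATA. The adjustment was that of Benjamini and Hochberg over all genes, with a threshold of 0.05. FPKM are not counts, so no count test was run, and depth is unknown. The procedure was tested on simulated data.

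The followed genes and the lists were chosen with earlier results of these data known. Named besides them were the nearest neighbours, the 2 most alike genes of each, and up to 3 (double-positive list) or 2 (other lists) called genes per direction. Neighbours beyond the nearest were named after their values were seen. Alternatives, 16 in all, were pseudocounts, filters, scalings, limma with neither the trend nor robust variances, a replicate block, each library left out and 4 libraries. Some genes of the lists are not reported here by name.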

Additional observations from a re-analysis of the deposited data

How the results depend on the processing

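All 11 rows kept a negative log2 difference under the 16 alternatives. They were chosen on this contrast and their groups do not overlap, so the kept sign is not a result about them. Of genes of the double-positive stage, 26 to 29 fell under every alternative, and 1 (Rmi2) rose, in place of 0, with a minimum mean of 5 FPKM, quantile normalization, upper quartile scaling, the replicate block and without GFP-negative library 3; leaving out 1 library at a time gave 0 to 1. Of genes working with the followed proteins, 9 to 18 rose when 1 library was left out and 10 rose in the table of the 4-library run, where 13 fell in place of 20. Calls over all tested genes dropped in that table as well, to 2155 higher and 2660 lower. Neighbours that fell numbered 12 to 18 and those that rose 7 to 8, the 12 with a minimum mean of 5 FPKM, where fewer neighbours were tested. Hmgb1, a neighbour of BC028471 that was not called (0.24), was called lower under quantile normalization (-0.44). The cause of these changes was not tested. With the replicate number of the titles as a block, 2929 genes rose and 3461 fell, against 2797 and 3419 without it. Same-numbered libraries of the groups showed correlations of deviations of 0.0940, -0.0209 and 0.0610 across genes. GFP-negative libraries 2 and 3 each correlated best with another number. With 3 libraries a group, such small values cannot decide whether the numbers pair the libraries, so pairing is unknown. Depth limits most the levels below 1 FPKM in GFP-positive cells, where the log2 difference depends on the pseudocount.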
